A study of Rana pirica with 9 samples.

Results

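Solute carriers are membrane proteins that move small molecules across the cell surface or across the membranes of vesicles, mitochondria and other organelles. Their genes carry the prefix slc followed by a family number. The probe sets described here are those whose single annotated symbol has the form of slc, a family number, the letter a and a member number. The red cell anion exchanger slc4a1 was left out. This gave 120 probe sets for 94 genes, among 15491 probe sets tested on the array. Carriers whose symbols have another letter after the family number, such as most of the slc35 family, are not covered by that form.

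The samples were dissected brains of Rana pirica tadpoles, taken before the hind limbs grew. Rana pirica is a brown frog. The salamander group (3 arrays) was kept with salamander larvae for 8 days, and the control group (6 arrays) was kept without predators for the same time. Each array carried RNA pooled from 10 brains, so that differences between single animals cannot be seen, and the labels call the arrays of a group biological replicates. The RNA was hybridized to Affymetrix arrays made for the clawed frog Xenopus, and a probe set therefore reads a transcript of another genus. Values are log2 signals relative to the median control array of the same probe set, as deposited, so the control median is 0 throughout and no absolute level is known. The link between probe set names and values could not be checked within the table, which bears on every gene and marker named (the values are given with the pairs of probe sets). The comparison asks which carrier transcripts differed in brains of tadpoles kept with salamander larvae.

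In the brain, sodium-coupled carriers of the cell surface take up amino acids and transmitters after release, and proton-driven carriers load transmitters into vesicles. Glucose carriers of the slc2 family bring sugar across the blood-brain barrier and into neurons. Ion carriers set the chloride, bicarbonate, calcium and zinc gradients of neurons and glia. The slc25 family sits mainly in the inner mitochondrial membrane and exchanges nucleotides, phosphate, metabolites and cofactors with the cytosol.

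No solute carrier probe set passed the test. At an adjusted p under 0.05, limma with Benjamini-Hochberg adjustment over all probe sets called 0 of the 120, where the share over all probe sets was 0%. An unadjusted p under 0.05 was reached by 5 of the 120 (4.17%), against 5.15% of all probe sets, with 2 positive and 3 negative differences. The shares over all probe sets were 2.12% for positive and 3.03% for negative differences. The groups did not overlap in 1 of the 120 (0.833%), against 2.33% of all probe sets. The differences were positive in 58 and negative in 62, and their median was -0.02 on the log2 scale, against 0.0016 over all probe sets. These shares lie near or below those of the whole array.

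The precision of the arrays limits these differences. The median SD between arrays of a group, on the log2 scale, was 0.99 for the carriers and 0.96 for all probe sets. The 95% confidence interval excluded a 2-fold difference either way in 3 of the 120 (2.5%) and a 4-fold one in 66 (55%), against 2.78% and 54.6% of all probe sets. The 3 were chosen for mention after their values were seen. They belonged to the vesicular monoamine carrier gene slc18a1 (-0.02, interval -0.91 to 0.88), the copper carrier gene slc31a2 (-0.03, interval -0.97 to 0.91) and 1 of the probe sets of the mitochondrial phosphate carrier gene slc25a3 (0.01, interval -0.96 to 0.98). A p over the threshold elsewhere does not show that a carrier was equal in both groups.

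The members were sorted by substrate into 5 classes, which held 23 probe sets for neurotransmitters and amino acids, 18 for sugars, 24 for ions, 27 for mitochondrial carriers and 28 others. Positive differences numbered 10 of 23, 6 of 18, 9 of 24, 20 of 27 and 13 of 28 in that order, against 50.1% over all probe sets. Class medians were -0.03, -0.13, -0.20, 0.16 and -0.15 on the log2 scale.

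**Figure D1:**
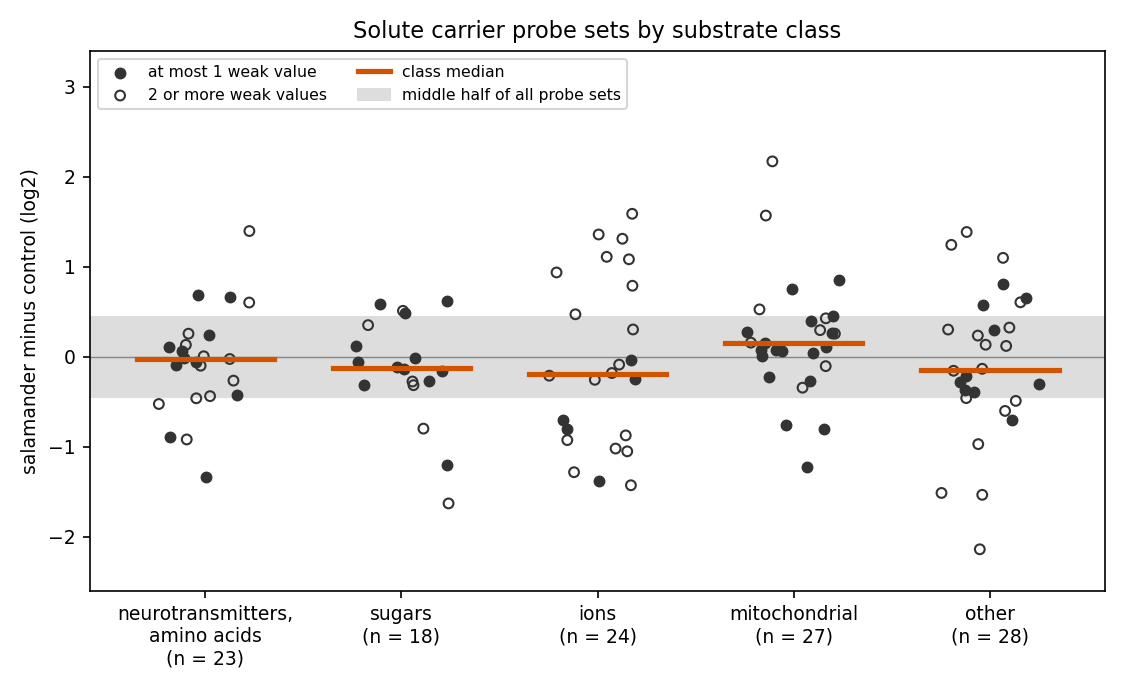
Each point is 1 of the 120 solute carrier probe sets, placed by substrate class, with the difference of salamander minus control on the log2 scale on the vertical axis. Filled points had at most 1 weak value among the 9 arrays, open points 2 or more, orange bars are class medians and the grey band holds the middle 50% of all probe sets. The mitochondrial median lies at 0.16 and the ion median at -0.20, and the ion class has the most open points.

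Mitochondrial carriers had positive differences in 20 of 27 probe sets, with 0 calls in limma and a smallest adjusted p of 0.734. That count fell to between 15 (without control array 2) and 18 (without control array 4) with 1 array left out. It was 16 with the replicate block, 18 with the spike-in level as a block and 19 after quantile normalization. On single arrays the median over the 27 was 0.18, 0.28 and 0.25 in the salamander group, against -0.17 to 0.14 in the control group. All 3 salamander arrays thus lay above the control arrays by this median, in the only class of the 5 where they did. Centring on the control median holds control values near 0, while the salamander arrays share any error of that median. How often other sets of 27 probe sets would stand apart was not tested. The class median was 0.28 on the arrays with high spike-in signal and 0.32 on those with low spike-in signal, which include 1 salamander array, and 0.10 with the spike-in level as a block (spike-ins are described at the end). When the probe sets of a gene were averaged, the median difference stayed at 0.16, with 12 of 19 mitochondrial genes positive. The medians over these genes were -0.07, 0.28 and 0.10 on the salamander arrays, against -0.24 to 0.14 on the control arrays, so that the groups overlapped. Without slc25a32 and slc25a22l, 18 of 25 probe sets were positive and the median was 0.10. Over the 18 mitochondrial probe sets with at most 1 weak value, 13 were positive and the median was 0.07. Marker lists, given at the end, had mostly positive differences for neurons, skeletal muscle, endothelium, microglia and leukocytes, and astroglia and ependyma. Those of myelin and red cells had mostly negative ones. The part of any of these lists in the mitochondrial median was not tested.

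**Figure D2:**
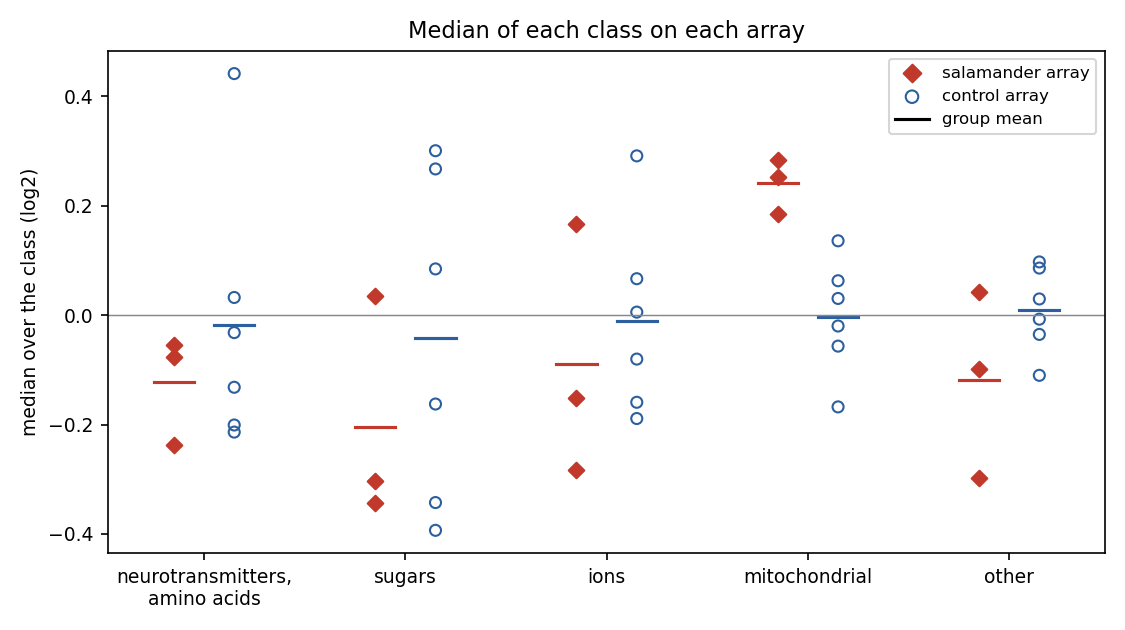
Each point is the median over the probe sets of 1 class on 1 array, on the log2 scale relative to the control median, with red diamonds for the 3 salamander arrays, blue circles for the 6 control arrays and bars for group means. In the mitochondrial class the salamander arrays, at 0.18 to 0.28, lie above the control arrays, at -0.17 to 0.14, and in the other classes the groups overlap. With probe sets averaged by gene, which is not drawn, the groups of the mitochondrial class overlapped as well.

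The mitochondrial member with the smallest p, and the only carrier whose groups did not overlap (1 of 120, where 1.09% of all probe sets stood wholly above the controls), was slc25a32, whose product carries folate or flavin adenine dinucleotide into mitochondria. Its values were 1.96, 2.76 and 1.43 on the salamander arrays. On the control arrays they ran from -1.24 to 0.60. The group means were 2.05 ± 0.67 (SD, n = 3) in salamander brains and -0.12 ± 0.74 (SD, n = 6) in control brains. The difference was 2.17 (SE 0.54, 95% confidence interval 0.98 to 3.36), or 4.50-fold, and it ranked 38 by p among the 15491 probe sets, with limma giving 0.00187 unadjusted and 0.734 after adjustment. It stood at 2.49 over the high spike-in arrays and at 1.54 over the low ones. Its values were marked as weak, a mark explained below, on 3 control arrays and 0 salamander arrays. The fold thus rests in part on control values with this mark, and values without the mark were not shown to be strong. Of the other 15490 probe sets, those most like it over the 9 arrays were one for the ribosomal protein gene rps27 (Pearson r 0.97), one for nat1 (0.94) and one for zfand3 (0.91), each picked as the highest of all.

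A relative of the mitochondrial glutamate carrier, slc25a22l, followed with salamander values of 1.61, 0.33 and 2.36, against control values of -1.19 to 0.60. Salamander array 2 lay within the control range. The difference was 1.57 (SE 0.56), with an adjusted p of 0.866 in limma, and 1.16 on high and 2.44 on low spike-in arrays. The third by p was slc25a17, whose product works in peroxisomes and not in mitochondria. Its probe set for the .L gene copy stood at -1.80, -2.18 and 0.57 on salamander arrays, against -1.22 to 1.25 on control arrays, a difference of -1.22 (SE 0.70), which was -2.07 without salamander array 3 and -0.70 without salamander array 2. The probe set for the .S copy differed by 0.26 (SE 0.47). The endings .L and .S mark the gene copies on the long and short chromosomes of the tetraploid Xenopus laevis. They belong to the array and its annotation, and matching copies in Rana pirica were not shown. A gap between .L and .S probe sets is therefore not shown to be a difference between gene copies.

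Carriers central to ATP production had differences whose intervals spanned 0. The ADP/ATP carriers slc25a4 and slc25a5 differed by 0.10 (interval -0.96 to 1.17) and 0.16 (interval -1.48 to 1.79). The phosphate carrier slc25a3 had probe sets at 0.01 and 0.53, and the aspartate-glutamate carriers slc25a12 and slc25a13 stood at 0.30 (SE 0.98) and -0.81 (SE 0.69). Signs of slc25a4, slc25a5, slc25a12 and of the first slc25a3 probe set turned when 1 array was left out. Members outside the naming rule are given as values. The 3 probe sets of the iron importer slc25a28 stood at 0.86, 0.45 and 0.07, and the 2 of the oxoglutarate carrier slc25a11 at 0.76 and 0.26. The citrate carrier slc25a1 was at 0.27, and the glutathione carrier slc25a39 was at -0.75 with an SE of 1.05.

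Neurotransmitter and amino acid carriers had 0 calls and 0 members at an unadjusted p under 0.05. Of the vesicular carriers, slc18a2, which loads dopamine, noradrenaline, serotonin and histamine, had values of 0.07, 0.18 and 0.90 on the salamander arrays, against -0.96 to 0.11 on the control arrays, and differed by 0.60 (interval -0.36 to 1.56). It was at 0.34 without salamander array 3, at 0.077 on high and at 1.38 on low spike-in arrays, and its values were marked as weak on 1 salamander and 4 control arrays. The vesicular GABA and glycine carrier slc32a1 had salamander values of -0.98, 0.39 and -0.96, against -0.72 to 0.42 in controls, and differed by -0.46 (interval -1.52 to 0.59). It was at -0.92 without salamander array 2 and at -0.23 without salamander array 1. On high spike-in arrays slc32a1 was at -0.042 and on low ones at -1.10, with weak marks on 1 salamander and 2 control arrays. Both carriers overlapped between the groups. The surface GABA carrier slc6a13, named outside the rule, was at 0.26 (SE 0.67).

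The amino acid exchangers of the slc7 family work as light chains bound to a heavy chain of the slc3 family. The light chain slc7a7, which exchanges cationic for neutral amino acids, had the smallest p of the class. Its salamander values were -0.12, -2.24 and -1.95, against control values of -0.95 to 0.63, and the difference was -1.33 (SE 0.61, adjusted p 0.945 in limma). Salamander array 1 lay among the controls and the other two below them. The heavy chain slc3a2, its partner, gave -0.89 (SE 0.57) in the .S probe set and 0.25 (SE 0.45) in the .L probe set. Both had at most 1 weak value, and without salamander array 1 they stood at -0.57 and 0.10. The large neutral amino acid light chain slc7a5, which also carries thyroid hormone, differed by -0.06 (interval -1.07 to 0.94). The glutamine carrier slc38a2 differed by -0.09 (interval -2.12 to 1.94), its control values spreading from -3.54 to 1.13. The peptide carrier slc15a2 stood at 1.88, -0.30 and 1.55 on salamander arrays, against -2.58 to 0.95 on control arrays, a difference of 1.40 (SE 0.82).

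Of 35 carriers listed for the brain and general metabolism, 16 were measured. Others on the list, among them the surface glutamate carriers slc1a2 and slc1a3, the vesicular glutamate carriers slc17a6 and slc17a7 and the chloride cotransporters slc12a2 and slc12a5, are not analysed here.

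**Figure D3:**
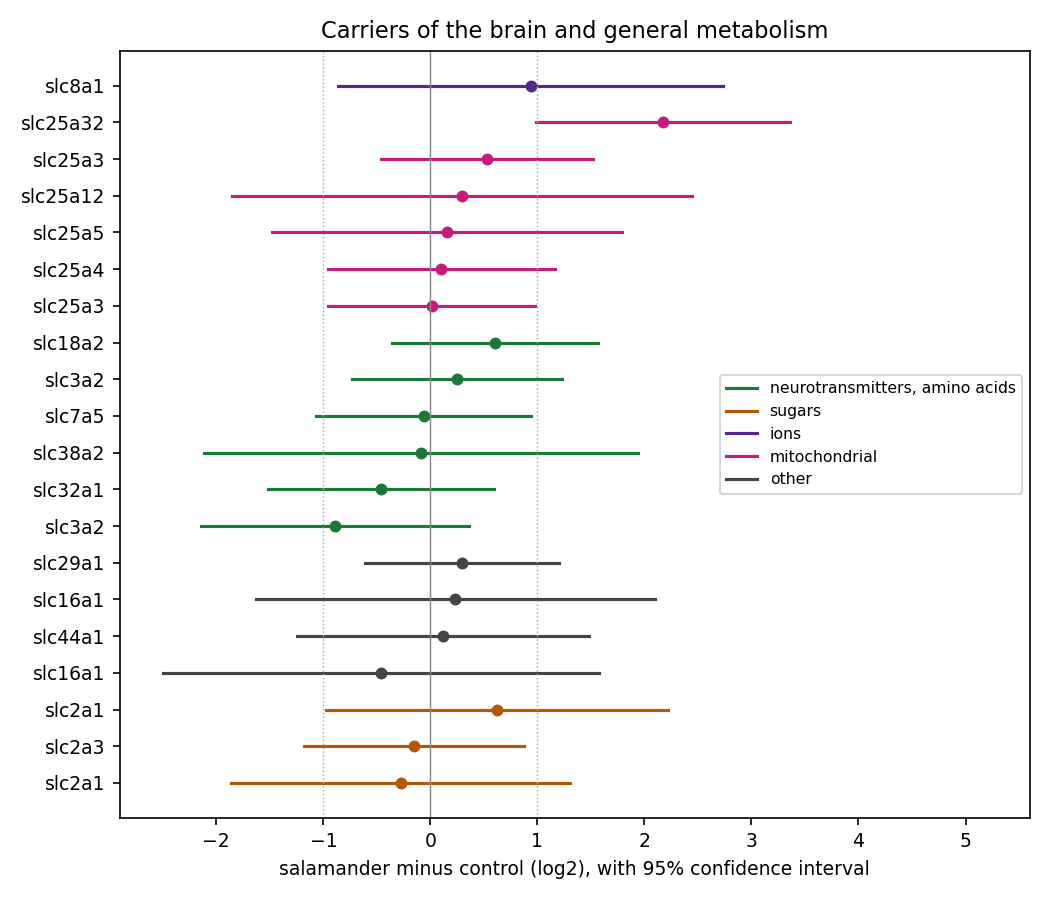
Each row is 1 probe set of the 16 listed carriers that were measured, 20 probe sets in all, with the difference of salamander minus control as a point and its 95% confidence interval as a line, on the log2 scale and coloured by class. Dotted lines mark a 2-fold difference either way. The interval of slc25a32 runs from 0.98 to 3.36 and those of the other 19 cross 0. The list was made with earlier results of these data known, and slc25a32 has the smallest p of all 120 carriers. Its place among the 20 is therefore no separate support.

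Sugar carriers had 6 of 18 positive differences and 0 calls. The smallest p belonged to slc50a1, a sugar efflux carrier of the SWEET type, with salamander values of -1.85, -1.03 and -1.93, against control values of -1.28 to 1.79. Salamander array 2 overlapped with the lowest control. The difference was -1.63 (SE 0.63, adjusted p 0.880 in limma), and it was -0.90 on high and -2.53 on low spike-in arrays. The insulin-responsive glucose carrier slc2a4 had values of -1.17, -0.07 and -2.33 in salamander brains, against -1.13 to 1.06 in control brains, and differed by -1.21 (SE 0.63). Without salamander array 3 that difference was -0.64, and without salamander array 2 it was -1.77.

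The main glucose carrier of the blood-brain barrier, slc2a1, had 2 probe sets, both for the .L copy, at 0.62 (interval -0.97 to 2.22) and -0.28 (interval -1.86 to 1.31). Without control array 3 the first was at 0.17. The neuronal glucose carrier slc2a3 differed by -0.16 (interval -1.18 to 0.87). The 4 sugar phosphate carriers of the slc37 family ran from -0.80 (slc37a1, -0.46 without control array 6) to 0.51 (slc37a4). The nucleotide sugar carriers slc35a2 and slc35a3.2, which supply glycosylation in the Golgi, were at -0.27 and -0.06.

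Of the classes, ion carriers had the largest median SD between arrays, at 1.17, against 0.89 to 1.02 in the other classes and 0.96 over all probe sets. Differences over 2-fold either way were found in 10 of 24 (41.7%), against 16.1% of all probe sets, yet 0 reached an unadjusted p under 0.05. At most 1 weak value was found in 5 of 24 (20.8%), against 47.3% of all probe sets. Over all probe sets with 2 or more weak values, 20.6% differed by over 2-fold.

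The anion exchanger slc26a6 had the smallest p of the class, with values of 2.47, 0.91 and 0.96 on salamander arrays, against -2.20 to 1.12 on control arrays. Salamander array 1 alone lay above all controls, and the difference was 1.59 (SE 0.73, adjusted p 0.945 in limma). Zinc carriers gave values of both signs. The exporters slc30a2 and slc30a9 stood at 1.36 (SE 0.76) and -1.28 (SE 0.66), and the importer slc39a9 at 1.11 (SE 0.54) in its .L probe set and -0.21 (SE 0.76) in its .S probe set. The dicarboxylate carriers slc13a2 and slc13a3 stood at -1.39 (SE 0.78) and 1.31 (SE 0.75), and slc13a2 was at -2.28 without salamander array 3 and at -0.89 without salamander array 2. The sodium-calcium exchanger slc8a1, which clears calcium from neurons and heart cells, had values of 2.12, 1.78 and -0.60 on salamander arrays, against -1.07 to 1.72 on control arrays. It differed by 0.94 (interval -0.86 to 2.74), with salamander array 3 apart from the other two. Without that array it was at 1.79, and without salamander array 1 at 0.43. The iodide carrier slc5a5 of the thyroid, named outside the rule, was at -0.87 (SE 0.61), with weak marks on 7 of the 9 arrays.

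**Figure D4:**
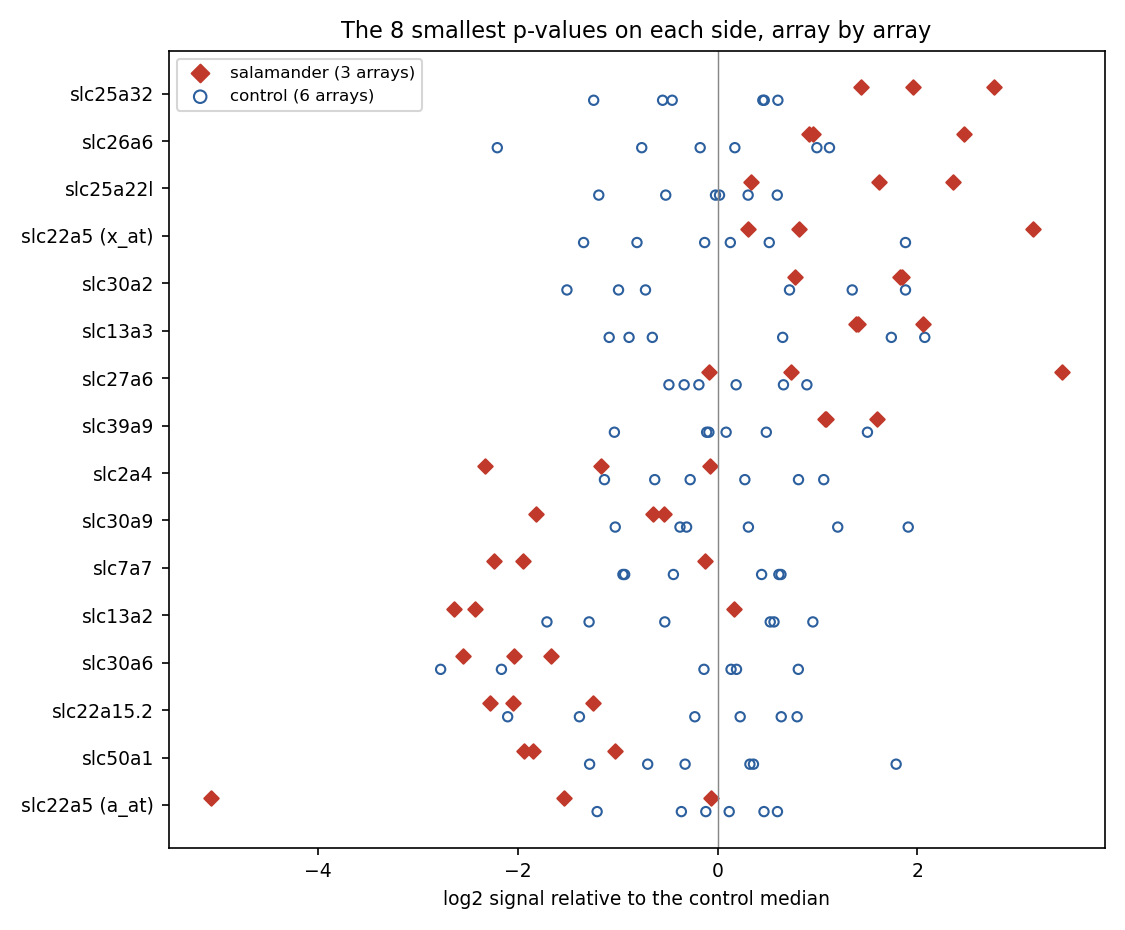
Rows are the 8 solute carrier probe sets with the smallest p among positive differences and the 8 among negative ones, with red diamonds for the 3 salamander arrays and blue circles for the 6 control arrays on the log2 scale relative to the control median. The groups stand apart in slc25a32 and overlap in the other 15 rows, and a single salamander array at -5.07 lies far out for 1 probe set of slc22a5.

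Among the other carriers, the slc22 family of organic ion and carnitine carriers had 2 of 5 probe sets at an unadjusted p under 0.05. Both were negative, where the share of negative ones over all probe sets was 3.03%. These 2 were named for their small p, so the family was brought up by its own values. The remaining probe sets were at 1.39 (slc22a5, described below), 0.81 (slc22a8) and -0.28 (slc22a4), so that signs were mixed. The member slc22a15.2 had salamander values of -1.25, -2.04 and -2.28, against control values of -2.10 to 0.80, and differed by -1.51 (SE 0.67, adjusted p 0.945 in limma). It was at -1.37 on high and -1.87 on low spike-in arrays. The slc22a5 gene, whose product brings carnitine into cells for fatty acid oxidation, had 2 probe sets, ending in _a_at and _x_at, whose names are otherwise the same and give 1 array target. The first had values of -5.07, -0.07 and -1.54 on salamander arrays, against -1.20 to 0.60 on control arrays, a difference of -2.14 (SE 0.89, adjusted p 0.902). The second had 0.82, 3.16 and 0.31 on salamander arrays, against -1.34 to 1.88 on control arrays, a difference of 1.39 (SE 0.78). Probe sets of the same target thus stood on opposite sides of 0, and their mean was -0.38. Without salamander array 1 the first was at -0.72, and without salamander array 2 the second was at 0.52.

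The fatty acid carrier slc27a6 differed by 1.24 (SE 0.71), resting on salamander array 1 at 3.45 beside -0.08 and 0.73 on the other two, against -0.49 to 0.89 on the control arrays. Without salamander array 1 it was at 0.20. The lactate carrier slc16a1, by which glia and vessel cells move lactate, had probe sets at -0.46 (SE 0.93) and 0.23 (SE 0.85). The adenosine carrier slc29a1 differed by 0.30 (interval -0.61 to 1.21, and 0.13 without salamander array 1) and the choline carrier slc44a1 by 0.12 (interval -1.24 to 1.48). The 3 probe sets named slc9a3r1, a scaffold protein of a sodium-proton exchanger and no carrier itself, lay between -0.60 and -0.16.

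Genes with several probe sets allow a check within the carriers. The 22 such genes gave 31 pairs of probe sets, and in 14 of them (45.2%) both differences had 1 sign, against 49.9% of 4219 pairs over all named genes. The median gap within a pair was 0.67 on the log2 scale, against 0.68 over all named genes. Deviations from the group means correlated at -0.0040 on average, against 0.0088 over all. The zinc exporter slc30a6 had 4 probe sets, 2 for each Xenopus gene copy, at -1.43, -0.26, -0.18 and 0.79. The last was at 0.14 without salamander array 2. In the 8 pairs with at most 1 weak value on both sides, 5 had the same sign, 3 of them among slc25a28. Over all named genes 50.1% of 1068 such pairs had the same sign. Deviations correlated at -0.21 on average in the 8 carrier pairs, against 0.0081 in the 1068. Over the whole table, too, probe sets of a gene had equal signs in about as many pairs as not and their deviations were nearly uncorrelated. These pairs therefore give no check that names and values were matched as the annotation has them, and the difference of a probe set was not shown to be that of the gene it is named for.

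**Figure D5:**
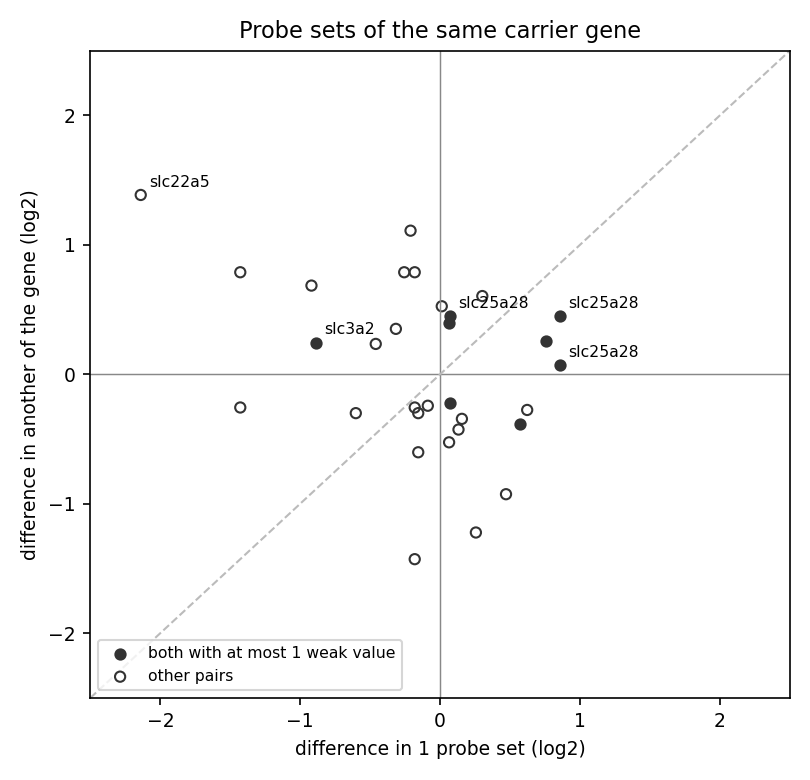
Each point is a pair of probe sets annotated to the same solute carrier gene, with the difference of salamander minus control of the one on the horizontal axis and of the other on the vertical axis, both on the log2 scale. Filled points are the 8 pairs in which both had at most 1 weak value, the dashed line marks equal differences, and 14 of the 31 points lie in the quadrants of equal sign.

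A signal was called weak where the rounding of the deposited value is finer than a signal and a control median of 256 or more allow. The mark was read after centring, so a weak control median can also put it on a stronger signal. A marked value was therefore not shown to be weak on its own array. The mark misses weak signals whose finer steps fall near a whole step, so an unmarked value was not shown to be strong. Of the 120 carriers 56 (46.7%) had at most 1 weak value, against 47.3% of all probe sets. On all 9 arrays 0 of the carriers were marked, against 51 of all 15491 probe sets. The 5 carriers with an unadjusted p under 0.05 were all among the other 64, or 7.81% of them, against 6.46% of all probe sets with 2 or more weak values.

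Facts of the whole series that touch these values are few. Array medians lay between -0.01 and 0.01. The SD over all probe sets of an array was 1.14 to 1.16 in the salamander group, against 0.94 to 0.99 in the control group. Only control arrays enter the centring, which narrows their values, and how much of the gap comes from this was not tested. The poly-A spike-in RNAs averaged 1.27 to 1.69 on salamander arrays 1 and 2 and controls 2, 3 and 4, and -2.25 to -1.76 on salamander array 3 and controls 1, 5 and 6. Of 11 neuron markers 10 were measured, with 14 probe sets, 9 of them with at most 1 weak value. Of these 14, 11 were positive, and their mean lay at 0.39 to 0.92 on salamander arrays, against -0.20 to 0.18 on control arrays. Myelin markers (3 of 7 genes measured) had 0 of 5 probe sets positive, and only 1 of the 5 had at most 1 weak value. Their mean lay at -1.23 to -0.83 in salamander brains, against -0.53 to 0.57 in control brains. Red cell markers (6 of 9 measured) lay at -0.85 to -0.31 in the salamander group, against -0.54 to 0.27 in the control group. Skeletal muscle markers (6 of 8 measured) had 9 of 9 probe sets positive, 5 of them with at most 1 weak value, and their mean lay at 0.074 to 0.62 on salamander arrays, against -0.59 to 0.22 on control arrays, so that the groups overlapped. Markers of microglia and leukocytes (4 of 8 measured) had 3 of 4 positive, at 0.12 to 0.81 in the salamander group, against -0.64 to 0.59 in the control group. Endothelium had 3 of 3 positive and skin 1 of 2. No marker passed the test in limma. An unadjusted p under 0.05 was reached by 2 of 14 neuron probe sets, 1 of 5 for myelin and 1 of 10 for red cells. It was also reached by 1 of 4 for microglia and leukocytes and by 0 in the other lists, against 5.15% of all probe sets. Astroglia and ependyma were covered by 2 of 7 markers, with 2 of 3 probe sets positive, and gfap and aqp4 were not analysed here. The mean of the 3 lay at 0.031 to 0.42 on salamander arrays, against -0.92 to 0.49 on control arrays. In pooled tissue, fewer cells of a type and less RNA per cell cannot be told apart.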

How the data were processed

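The deposited table holds log2 values of 15611 probe sets on 9 arrays. Per the submitters' processing notes, the authors computed MAS5 signals. The logarithm and the centring of each probe set on its control median were read from the values (largest departure of that median 9.54e-07), and the scaling between arrays is not stated in the labels. The 120 Affymetrix control probe sets were left out. limma 3.58.1 in R 4.3.3 (lmFit, eBayes without trend) was fitted to the other 15491, salamander minus control, with Benjamini-Hochberg adjustment over all of them and a threshold of 0.05. Figures used Python 3.11.15 and matplotlib 3.10.9. The fit was also run on simulated data, drawn as independent normal values with equal spread in both groups. Whether the spread between arrays of a group was equal in both groups was not tested here. That run therefore does not test the fit for these data. The number of arrays limits the precision, and other columns numbered 0.

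Names came from the platform annotation, in lower case without homeolog endings. It gave 9304 tested probe sets 1 symbol, 195 several and 5992 none. A signal was marked weak where the value was off whole steps by over 0.25 of a step. Members, classes and lists were chosen with earlier results of these data known. Named by rule were the 8 smallest p-values on each side, 3 per class, 35 listed carriers wherever measured, and the 3 probe sets most like the top carrier, which made 43 carrier probe sets of 33 genes. Alternatives covered the moderation, scaling, averaging by gene, weak signals, spike-in level, replicate block and single arrays left out. No sequence was used.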

Additional observations from a re-analysis of the deposited data

Results flagged for a closer look

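In 126 sets of 6 control values, one for each of the 120 carriers and for 6 array medians, 5 had 1 control array far from the others by Dixon's criterion, where chance gives about 1 in 20, or 6.3. The copper carrier slc31a2 stood at -1.04 on control array 2, next to -0.18. The mitochondrial ATP-Mg carrier slc25a24 stood at -2.81 on control array 1 in its .L probe set, next to -0.36. The cationic amino acid carrier slc7a3 stood at -1.78 on control array 2, next to -0.30. The amino acid carrier slc43a2 stood at -2.38 on control array 5 in its .L probe set, next to -0.31. The sugar phosphate carrier slc37a4 stood at 1.95 on control array 2, next to 0.37.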

How the results depend on the processing

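Under every alternative run, 0 solute carriers passed at an adjusted p under 0.05, and the smallest adjusted p of a named carrier was 0.550. At an unadjusted p under 0.05 there were 5 carriers over all arrays. After quantile normalization there were 3 (2.5%, against 3.07% of all probe sets), all among the 5. Leaving out weak probe sets removed all 5, and 1 other carrier, slc7a7, passed among the 56 left (1.79%, against 4.85%). On high spike-in arrays alone there were again 5 (4.17%, against 5.53%), but only 1 of them was among the 5 found over all arrays. The others were slc13a2, slc16a6, slc25a17 and the _x_at probe set of slc22a5. That probe set was at 2.26 there, while the slc22a5 probe set among the 5 is the negative _a_at one. With the spike-in level as a block there were 7 (5.83%, against 5.56%), 4 of them among the 5. With 1 array left out they numbered 3 without salamander array 1, 2 of them among the 5, to 8 without salamander array 2, 4 of them among the 5, beside 5.02% and 5.05% of all probe sets. The 1 carrier without overlap became 0 without weak probe sets, 19 (15.8%) on high spike-in arrays, where 19.9% of all probe sets did not overlap, and 54 (45%) on low ones, where 49.7% did not. With 1 array left out it ran from 1 to 10, with 10 found without salamander array 2 (8.33%, against 7.11% of all probe sets). Fewer arrays make gaps between groups more frequent by construction.

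The carriers' median of -0.02 was 0.035 on high spike-in arrays, -0.069 with probe sets averaged by gene, and -0.092 to 0.028 with 1 array left out, the ends without salamander arrays 2 and 3. The ion median of -0.20 was -0.71 without weak probe sets, which left 5 of 24, and -0.40 to -0.049 with 1 array left out, the ends without control arrays 4 and 3. The median of the other carriers, -0.15, was -0.057 after quantile normalization, -0.25 without weak probe sets, -0.025 on high spike-in arrays, and -0.19 to -0.013 with 1 array left out, the ends without salamander arrays 1 and 3. The mitochondrial median of 0.16 was 0.28 on high and 0.32 on low spike-in arrays, and 0.088 to 0.22 with 1 array left out. The causes were not tested.

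The labels number the arrays of both groups from 1, but nothing ties equal numbers together, and deviations of same-numbered arrays correlated at 0.0059, 0.016 and -0.0049. With the replicate block, 11 carriers had an unadjusted p under 0.05 (9.17%, against 5.35% of all probe sets), 4 of them among the 5. After adjustment 0 passed, and the median over the carriers was -0.068. Control arrays 4, 5 and 6 have no salamander array of their number and add nothing to the difference under the block. Of the 3 salamander arrays, 1 correlated best with its own number. Signs turned under the block for slc25a12 (-0.21), slc25a4 (-0.049), the first slc25a3 probe set (-0.055) and slc44a1 (-0.18).

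Of 43 named probe sets, 20 turned sign under some alternative. With the spike-in level as a block these were slc30a6 (0.028, the .S _at probe set), slc25a5 (-0.011) and the first slc25a3 probe set (-0.051). On high spike-in arrays they were the same slc30a6 probe set (0.16), slc25a5 (-0.18) and slc16a1 (0.59, the probe set at -0.46 over all arrays). On low spike-in arrays, with 1 salamander array, slc13a2 was at 0.73, slc8a1 at -0.40, slc30a6 at -0.19 (.L _x_at) and 0.21 (.L _at), and slc39a9 at 0.026 (.S). There slc25a17 was at 0.43 (.L) and -0.33 (.S), slc25a12 at -0.50, slc25a4 at -0.071, slc25a3 at -0.74, slc7a5 at 0.13, slc38a2 at 0.083, slc22a5 at -0.047 (_x_at), slc44a1 at -1.11 and slc2a3 at 0.37. With 1 array left out, 15 turned, 15 others moved by over 1.5 times, as given beside their values above, and 13 did neither. Those that turned ran as follows. For slc30a6 the range was -1.05 to 1.03 (.S _at) and -0.48 to 0.056 (.L _at), for slc39a9 -0.58 to 0.081 (.S), and for slc25a12 -0.29 to 1.01. For slc25a4 it was -0.083 to 0.28, for slc25a5 -0.55 to 0.63, for slc25a3 -0.18 to 0.40 and for slc25a17 -0.26 to 0.60 (.S). For slc38a2 it was -0.69 to 0.39, for slc7a5 -0.23 to 0.084, for slc44a1 -0.15 to 0.65 and for slc16a1 -0.72 to 0.94 (the probe set at 0.23) and -1.08 to 0.023 (the one at -0.46). For slc2a1 it was -1.19 to 0.31 (the probe set at -0.28) and for slc2a3 -0.41 to 0.16. All 15 had a difference within 1 SE of 0 over all arrays. The centring hides the level, so signal over background is known only in part, through the weak marks.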
